A study of Homo sapiens with 16 samples.

Results

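The genes described here carry cells across the G1/S boundary and copy their DNA. They were chosen by name from a list of 48 S-phase genes, and 47 of the 48 were among the 11282 genes of the deposited table, while UHRF1 was not analysed here. Each was followed in all 16 libraries made from HCC70, a basal-like (triple-negative) human breast tumour cell line in long use. Cells grown in multiwell plates received a short hairpin RNA (shRNA) construct, and 3′ cDNA was then counted by sequencing. There were 8 construct groups of 2 libraries each. The targeted groups were KLF5, RBPJ, NFIB and FOXA1, each named for a transcription factor. The control groups were plko, named for the vector backbone, and shRFP, shLACZ and shLUC, named for genes that human cells lack. The labels give every library an identifier of its own, so the libraries of a target carried different hairpins. The plko libraries also differ in identifier, and that of plko 2 consists of zeros. All groups, controls included, were infected cells of the same line in the same medium, and no selection of clones is mentioned. What a construct does was taken from its name.

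As background, cyclin D with CDK4 and CDK6, and then cyclin E with CDK2, phosphorylate the retinoblastoma protein RB1, which releases E2F transcription factors to switch on the genes of DNA synthesis. Origins of replication are licensed in G1, when the origin recognition complex, CDC6 and CDT1 load the MCM2-7 helicase, and they fire in S phase, when CDC45 and the GINS complex activate that helicase. DNA polymerases then copy the strands on a sliding clamp, while ribonucleotide reductase and thymidylate synthase supply the building blocks. Basal-like tumours commonly have lost RB1 or gained cyclin E.

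Promoters are shown first for 5 of the 6 members that passed with KLF5 hairpins or with plko (E2F1, LIG1, CDK4, POLD2 and CCNE1), since several such genes are textbook E2F targets. MCM6, a helicase subunit that passed in no comparison, is added as an example of a promoter dense in E2F words, and MCM5 is named only. Each stretch holds the 160 bases before the annotated start, written 5′ to 3′ on the gene's own strand, from RefSeq with build GRCh38.p14. Capitals mark the E2F words TTTGGCGC, TTTCCCGC, TTTCGCGC and TTTGCCGC or their reverse complements, and the CACCC-box word CCACCC or its reverse complement, which is of the kind bound by Krüppel-like factors such as KLF5. The E2F1 stretch is chr20:33686386-33686545 on the minus strand, MCM6 is chr2:135876444-135876603 on the minus strand, and LIG1 is chr19:48170345-48170504 on the minus strand. The CDK4 stretch is chr12:57752311-57752470 on the minus strand, POLD2 is chr7:44123549-44123708 on the minus strand, and CCNE1 is chr19:29811831-29811990 on the plus strand.
E2F1: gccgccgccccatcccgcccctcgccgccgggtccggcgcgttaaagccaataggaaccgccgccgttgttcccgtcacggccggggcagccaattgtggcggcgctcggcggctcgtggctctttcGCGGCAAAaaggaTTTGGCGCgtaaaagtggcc
MCM6: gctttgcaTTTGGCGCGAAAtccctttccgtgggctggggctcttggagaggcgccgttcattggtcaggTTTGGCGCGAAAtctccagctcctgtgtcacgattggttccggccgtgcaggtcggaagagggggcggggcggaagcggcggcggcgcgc
LIG1: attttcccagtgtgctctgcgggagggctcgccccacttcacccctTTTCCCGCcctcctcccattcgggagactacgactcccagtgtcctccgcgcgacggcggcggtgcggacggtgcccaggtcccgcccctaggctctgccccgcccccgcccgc
CDK4: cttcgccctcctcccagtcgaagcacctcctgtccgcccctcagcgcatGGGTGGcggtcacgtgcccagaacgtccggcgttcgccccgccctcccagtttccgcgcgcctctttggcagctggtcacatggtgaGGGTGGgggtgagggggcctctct
POLD2: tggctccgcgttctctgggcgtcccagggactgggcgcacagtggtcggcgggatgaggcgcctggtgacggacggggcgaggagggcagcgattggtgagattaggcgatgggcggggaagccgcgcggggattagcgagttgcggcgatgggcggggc
CCNE1: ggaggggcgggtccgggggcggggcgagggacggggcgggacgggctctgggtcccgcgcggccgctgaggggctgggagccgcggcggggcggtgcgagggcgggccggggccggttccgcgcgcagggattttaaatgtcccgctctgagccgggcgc

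The E2F1 promoter held 2 E2F words within this stretch, LIG1 held 1, and MCM6 held 4 matches that overlap in pairs because a word on each strand shares bases. CDK4 held the CACCC-box word at 2 places and no E2F word, and the POLD2 and CCNE1 stretches held neither. Over windows of 250 bases before to 50 after the start, an E2F word stood in 18 of the 38 member promoters in the RefSeq table (47.4%), against 3.33% of all 27305 promoters there and 5.57% of the 8936 promoters of tested genes. The CACCC-box word stood in 10 of the 38 (26.3%), against 33.4% of all promoters and 37.1% of those of tested genes. A match is a description of letters and not a site of binding. Only these exact words were searched, so the lack of a match does not show that a site is absent.

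Whole reads could be recovered from the normalized values, and the libraries held between 375713 (plko 1) and 3090666 (RBPJ 1) of them. The targeted gene was lower in every library of its group than the control mean, at 66.0% and 39.4% of it for KLF5 in KLF5 1 and KLF5 2, 84.3% and 16.6% for RBPJ, 61.9% and 10.97% for NFIB, and 22.8% and 54.8% for FOXA1. By limma that difference passed for KLF5 (-0.94, adjusted p = 0.0122) and not for RBPJ (-1.34, adjusted p = 0.266), NFIB (-1.89, adjusted p = 0.2) or FOXA1 (-1.41, adjusted p = 0.257). RBPJ 1 lay inside the control range for RBPJ, at 43.3 against 43.1 to 68.4 in the controls. Of the basal-like markers, 11 of 11 were in the table, with KRT5 between 2085 and 4517 in every library. Others of that list were low, with TP63 at 0.68 to 4.78 and ITGB4 at 8.82 to 25.1. Of the luminal markers, 9 of 10 were in the table, and they summed to between 510 and 1008 in any library. Only 5 of 11 fibroblast and endothelial and 2 of 8 leukocyte markers had a row, and each of those lists summed to 51.2 or less in any library. The KLF5 and plko libraries stood apart from the other 12 in genes outside this set. The luminal keratin KRT8 was at 13.5 and 12.8 with KLF5 hairpins and 22.1 and 14.3 with plko, against 110 to 395 in the other libraries. Values below for KLF5 are therefore given against all 8 controls and, where it matters, against each kind of control. In bulk samples, fewer cells in S phase and less RNA per cell cannot be told apart.

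All 47 members passed the filter on low values, which kept 10826 genes, and none had a library without a read. GINS4, a GINS subunit, was the thinnest, down to 1 read, and MCM7, a helicase subunit, reached 1622 reads. Within the 8 controls the median member had a standard deviation of 0.35 on the log2 scale, against 0.40 for all tested genes. E2F1 was the steadiest member in the controls, with a standard deviation of 0.11, and POLD2, LIG1 and CCNE1 were the most variable, at 0.96, 0.78 and 0.72. Over all libraries PCNA, the sliding clamp, differed 1.51-fold between its highest and lowest library, and PRIM1, the primase subunit that starts new strands, differed 9.79-fold.

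**Figure D1:**
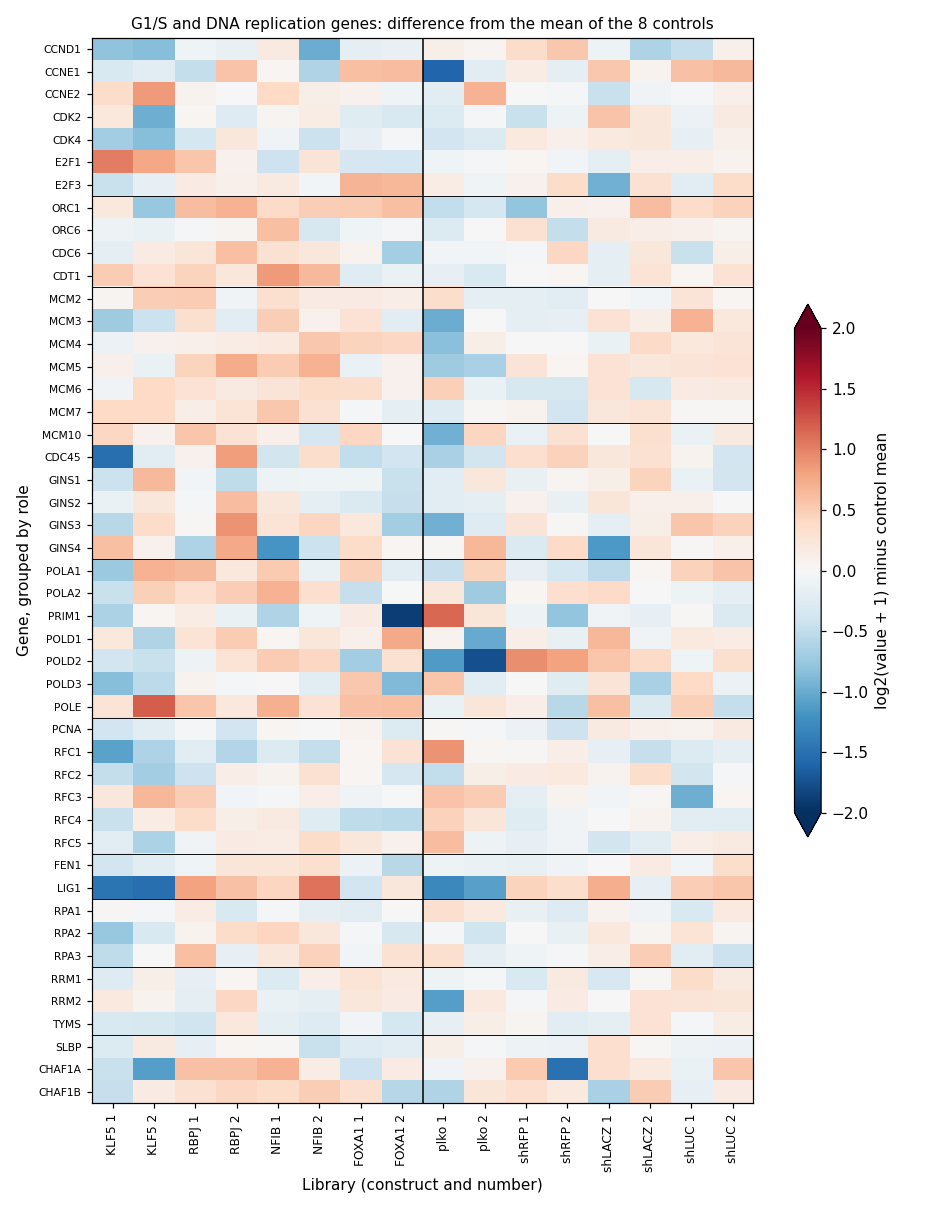
Each cell is one library's log2(value + 1) minus the mean of the 8 control libraries for that gene, with targeted libraries left of the vertical line, controls right of it and genes grouped by role. LIG1 is low in both KLF5 libraries and in both plko libraries, and E2F1 is high in both KLF5 libraries.

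Which members moved with each targeted factor was tested with limma on log2(value + 1), with p-values adjusted over all 10826 genes and a threshold of 0.05. With KLF5 hairpins 3 of the 47 members passed: E2F1 was higher, and CDK4 and LIG1 were lower. That is 6.38% of members, against a background of 5.37% of all tested genes (2.3% higher and 3.07% lower), so the share of members called was near that of any gene. An unadjusted p under 0.05 was found for 12 members, against 20.1% of all genes. The median member stood at -0.14 on the log2 scale, with 32 of 47 below 0, against a median of 0.05 over all genes. The 3 calls concerned a transcription factor, a kinase and a ligase, and the other 44 members did not pass.

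E2F1, the activating transcription factor that drives S-phase entry, had 197 in KLF5 1 and 164 in KLF5 2, while the controls ran from 84.5 to 106 with a median of 96.5. Both KLF5 libraries lay above every control library, and above every other targeted library. The log2 fold change was 0.90 (SE 0.20, limma adjusted p = 0.0109), and E2F1 passed both against the 6 hairpin controls (0.87, limma adjusted p = 0.0052) and against plko alone (0.96, limma adjusted p = 0.0338). With only 1 KLF5 library left the direction held but the call did not, at 0.77 without KLF5 1 (limma adjusted p = 0.223) and 1.02 without KLF5 2 (limma adjusted p = 0.0771).

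CDK4, the cyclin D-dependent kinase of G1, had 122 and 110 with KLF5 hairpins, against 152 to 233 in the controls with a median of 213. Both KLF5 libraries were lower than all others of the series. The log2 fold change was -0.78 (SE 0.20, limma adjusted p = 0.0274). Against plko alone, whose libraries had the lowest CDK4 of the controls at 152 and 164, it was -0.45 and did not pass (limma adjusted p = 0.277), nor did it without KLF5 1 (-0.85, limma adjusted p = 0.184) or without KLF5 2 (-0.70, limma adjusted p = 0.265). CDK4 overlaps TSPAN31 on the opposite strand, and no source used here states whether counting used strand. CCND1, CCNE2, MCM2, MCM7, RFC4, RFC5, TYMS, FEN1, GINS2, RPA1 and CHAF1A also overlap a gene on the opposite strand. PRIM1, CHAF1B and FEN1 overlap one on the same strand, which strand would not resolve. TSPAN31 itself differed by -0.03 with KLF5 hairpins (limma adjusted p = 0.994).

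LIG1, the DNA ligase that seals Okazaki fragments, had 15.6 and 15.2 with KLF5 hairpins, while the controls ran from 17.6 to 74.6 with a median of 59.4. The KLF5 libraries were the lowest of the series, but the plko libraries came close at 17.6 and 20.4, far below the other 6 controls. The log2 fold change was -1.48 against all controls (SE 0.41, limma adjusted p = 0.0353), -1.88 against the 6 hairpin controls (limma adjusted p = 3.08e-05) and -0.29 against plko alone (limma adjusted p = 0.666). The call against all controls was lost without KLF5 1 (-1.50, limma adjusted p = 0.257) or KLF5 2 (-1.46, limma adjusted p = 0.253). It was lost as well in a fit on the KLF5 and control libraries alone (limma adjusted p = 0.0509) and without any one of shRFP 1, shRFP 2, shLACZ 1, shLUC 1 and shLUC 2, with log2 fold changes of -1.43 to -1.38 and limma adjusted p of 0.0548 to 0.0605.

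**Figure D2:**
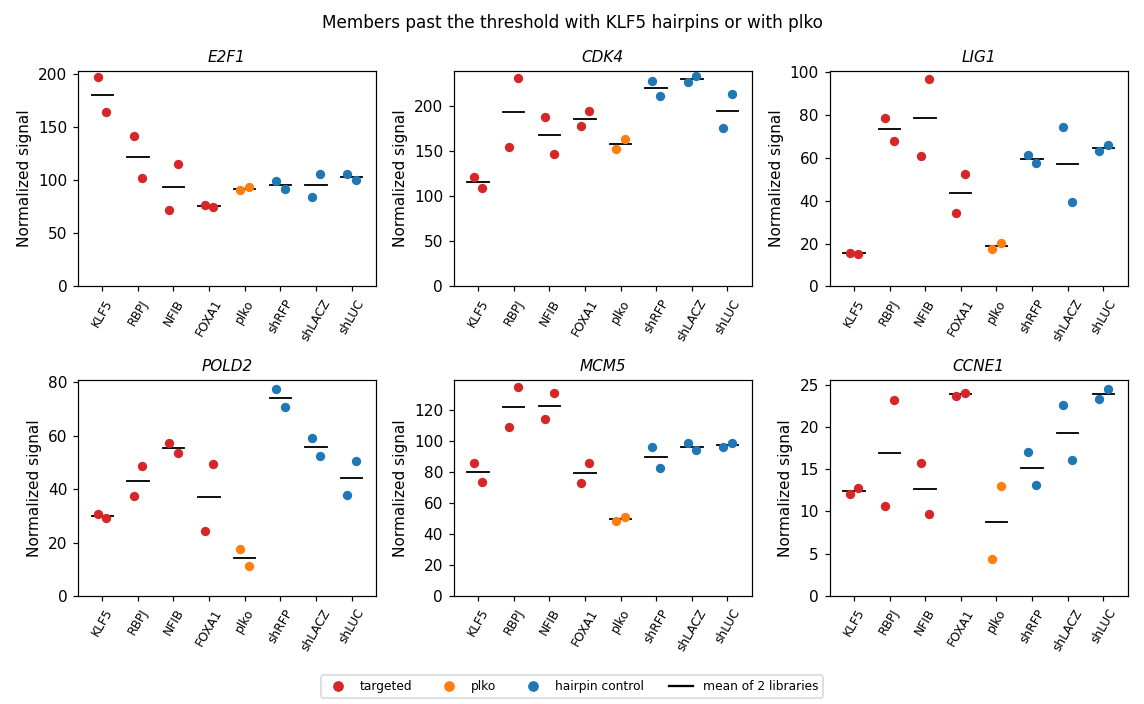
Each dot is the normalized signal of one library and each line the mean of the 2 libraries of a construct, for the 6 members that passed with KLF5 hairpins or with plko. E2F1 sits at 197 and 164 with KLF5 hairpins, above every control, and LIG1 is under 21 in both the KLF5 and the plko libraries.

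Among the other cyclins, kinases and E2F factors, CCND1, the D-type cyclin that activates CDK4, had 79.6 and 77.0 with KLF5 hairpins and 91.0 to 204 in the controls. Both KLF5 libraries lay below every control, but the difference of -0.83 did not pass by limma (adjusted p = 0.0788), while it did by DESeq2 (-0.90, adjusted p = 0.0352) and by limma without shLACZ 2 (-0.92, adjusted p = 0.0464). CCNE2, a cyclin E, had 146 and 204 with KLF5 hairpins, while the controls ran from 83.1 to 183 with a median of 110.5. The high control was plko 2, so the ranges overlapped, and the difference of 0.61 did not pass against all controls (limma adjusted p = 0.122) but did against the 6 hairpin controls (0.69, limma adjusted p = 0.0424) and without plko 2 (0.71, limma adjusted p = 0.029). CCNE1, the other cyclin E, had 12.1 and 12.8 with KLF5 hairpins and 4.41 to 24.5 in the controls, a difference of -0.27 (limma adjusted p = 0.787). CDK2, the cyclin E-dependent kinase, had 43.4 in KLF5 1, inside the control range of 27.2 to 56.3, and 18.7 in KLF5 2, below it (-0.38, limma adjusted p = 0.488; 0.20 without KLF5 2). E2F3, the other activating E2F of the set, had 8.53 and 10.5, against 5.63 to 15.7 in the controls (-0.30, limma adjusted p = 0.676).

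Along the replication machinery, values with KLF5 hairpins went both ways, and against all 8 controls none but LIG1 passed. Against the 6 hairpin controls POLD2, the regulatory subunit of the lagging-strand polymerase delta, and RPA2, a subunit of the single-strand binding complex, passed as well. With that control set 6 of 47 members passed, beside 1194 of all 10826 genes, so more genes of every kind were called. POLD2 had 30.6 and 29.2 with KLF5 hairpins, below those 6 controls at 37.8 to 77.3 but above plko at 17.6 and 11.2. Its log2 difference was -0.90 against the hairpin controls (limma adjusted p = 0.0415), -0.41 against all controls (limma adjusted p = 0.699) and 1.04 against plko alone (limma adjusted p = 0.0965). RPA2 had 66.1 and 91.0 with KLF5 hairpins and 102 to 136 in the hairpin controls (-0.61, limma adjusted p = 0.0428), and its difference from all controls was -0.53 (limma adjusted p = 0.125). Of the 4 licensing genes, CDT1 had 56.9 and 49.0 against 32.2 to 49.0 in the controls, so KLF5 2 exceeded the highest control by less than 1 read (0.40, limma adjusted p = 0.307). Of the 6 MCM2-7 helicase subunits, MCM7 had 483 and 485 against 282 to 446 in the controls, without overlap (0.40, limma adjusted p = 0.225). MCM7 overlaps AP4M1 on the opposite strand, which had 7.11 and 7.001 with KLF5 hairpins and 8.14 ± 3.26 in the controls (SD, n = 8). MCM2, another helicase subunit, had 163 and 222 against 135 to 201 in the controls (0.27, limma adjusted p = 0.485).

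Of the clamp and its loader, RFC1, the large subunit that opens the clamp, had 22.7 and 31.5 with KLF5 hairpins and 35.3 to 92.7 in the controls. Its libraries did not overlap, with plko 1 as the highest control. The difference of -0.85 did not pass against all controls (limma adjusted p = 0.074), but it did by DESeq2 on the same controls (-0.91, DESeq2 adjusted p = 0.042), against plko alone (-1.32, limma adjusted p = 0.0186) and without plko 1 (-0.72, limma adjusted p = 0.049). RFC1 did not pass against the 6 hairpin controls, by edgeR or without plko 2. PCNA had 149 and 168 with KLF5 hairpins and 146 to 221 in the controls (-0.30, limma adjusted p = 0.391). TYMS, which makes thymidylate, had 140 and 139 with KLF5 hairpins and 150 to 212 in the controls, below every control library in both (-0.31, limma adjusted p = 0.397). RRM2, the inducible subunit of ribonucleotide reductase, had 250 and 231 against 101.5 to 269 in the controls, and its difference of 0.13 was within their spread (limma adjusted p = 0.835). Both KLF5 libraries lay above every control for 3 members (E2F1, MCM7 and, by less than 1 read in KLF5 2, CDT1) and below every control for 6 (CDK4, LIG1, RFC1, CCND1, TYMS and FEN1), against 9.31% of all tested genes above and 6.96% below. Taken one by one, KLF5 1 lay above every control for 3 members and below for 14, or 6.38% and 29.8%, against 17.7% and 14.3% of all genes. KLF5 2, with the lower KLF5 level, lay above for 10 and below for 9, or 21.3% and 19.1%, against 17.9% and 15.1% of all genes. GINS1, a GINS subunit, and POLA1, the catalytic subunit of the polymerase that carries primase, were below every control in KLF5 1 and above every control in KLF5 2. Some of these margins were thin. POLA1 had only 10 reads in KLF5 1 and 18 in KLF5 2. GINS1 in KLF5 1 was at 30.6, against a lowest control of 32.0.

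**Figure D3:**
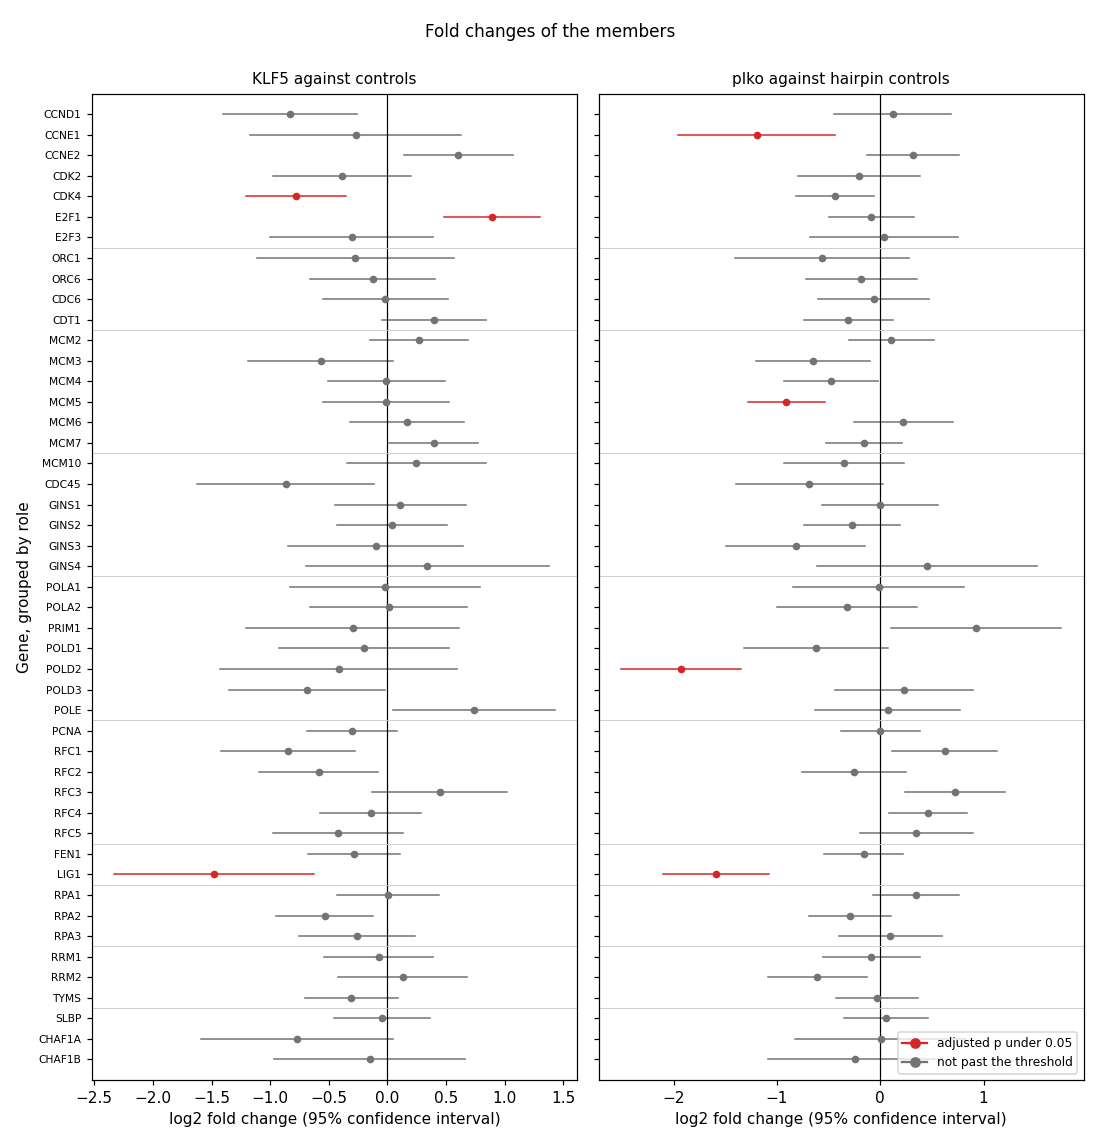
Points are log2 fold changes of the 47 members with 95% confidence intervals, for KLF5 against the 8 controls on the left and for plko against the 6 hairpin controls on the right. Red marks the 3 members past the threshold with KLF5 hairpins and the 4 with plko, and LIG1 is the only gene red in both panels.

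The wider list of S-phase genes outside the set, 70 of which were tested, had 3 higher and 5 lower with KLF5 hairpins, or 11.4% against the same 5.37% of all genes. Its median was -0.01. ASF1B, a histone H3-H4 chaperone that works with replication, had 631 and 841 with KLF5 hairpins, against 174 to 345 in the controls (1.43, limma adjusted p = 0.00109). E2F2, an activating E2F closely related to E2F1, went the other way, with 16.4 and 26.8 against 45.9 to 95.9 in the controls (-1.76, limma adjusted p = 0.000708). Neither gene's KLF5 values overlapped those of any control, and so E2F1 and E2F2 differed in opposite directions in the same libraries.

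DCK, which salvages deoxycytidine, was higher, at 48.3 and 47.8 with KLF5 hairpins and 22.8 ± 3.94 in the controls (SD, n = 8; log2 1.06, limma adjusted p = 0.0246). TK1, which salvages thymidine, was lower, at 75.3 and 87.5 against 189 ± 50.5 in the controls (SD, n = 8; log2 -1.15, limma adjusted p = 0.0123). NASP, another histone chaperone, was lower, at 71.1 and 113 against 171 ± 23.7 in the controls (SD, n = 8; log2 -0.91, limma adjusted p = 0.017). Against plko alone TK1 (-0.48, limma adjusted p = 0.242), NASP (-0.82, limma adjusted p = 0.0909) and DCK (1.08, limma adjusted p = 0.0831) did not pass. Without KLF5 1 the same applied to TK1 (-1.05, limma adjusted p = 0.211), NASP (-0.58, limma adjusted p = 0.42) and DCK (1.05, limma adjusted p = 0.228), and without KLF5 2 to TK1 (-1.26, limma adjusted p = 0.102) and DCK (1.07, limma adjusted p = 0.199). E2F2 did not pass without KLF5 1 (-1.42, limma adjusted p = 0.0601), and ASF1B not without KLF5 2 (1.22, limma adjusted p = 0.0623).

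None of the 19 tested brakes of G1/S passed with KLF5 hairpins by limma, and 4 had an unadjusted p under 0.05, against 20.1% of all genes. RB1, the pocket protein, was thinly measured, with 13.5 and 16.3 against 7.04 to 35.3 in the controls (0.05, limma adjusted p = 0.969). CDKN1A, the p21 inhibitor of cyclin-dependent kinases, had 149 and 126 against 86.0 to 344 in the controls (-0.70, limma adjusted p = 0.31). Of 34 mitosis genes 5 passed, all lower, which is 14.7%, against 3.07% of all genes called lower. The list did not move one way, with 23 negative and 11 positive differences. Both KLF5 libraries lay below every control for 6 of the 34 and above every control for 3, against 6.96% and 9.31% of all genes. AURKA, a kinase of spindle poles, had 24.2 and 47.8 with KLF5 hairpins and 68.8 to 93.2 in the controls (-1.24, limma adjusted p = 0.00335; -0.77 and limma adjusted p = 0.22 without KLF5 1). PRC1, CCNB2, CENPF and CDC25B, which act in the spindle midzone, in mitotic entry, at kinetochores and in activating CDK1, had log2 fold changes of -0.82, -0.89, -0.92 and -0.88 (limma adjusted p = 0.0164, 0.0241, 0.0288 and 0.0374). None of these 4 passed without KLF5 1 (limma adjusted p of 0.197 to 0.364) or without KLF5 2 (0.122 to 0.199). Against plko alone PRC1, CCNB2 and CDC25B did not pass (limma adjusted p = 0.085, 0.125 and 0.464), and CDC25B did not without any one of the 6 hairpin control libraries (0.0517 to 0.0626). MKI67, the proliferation marker Ki-67, had 83.2 and 132 against 122.5 to 193 in the controls and did not pass (-0.54, limma adjusted p = 0.178). CCNA2, CDK6 and DNMT1, the cyclin of S phase and G2, a partner of D-type cyclins and the maintenance DNA methyltransferase, differed by 0.13, -0.46 and 0.16 and did not pass (limma adjusted p = 0.795, 0.354 and 0.774).

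**Figure D4:**
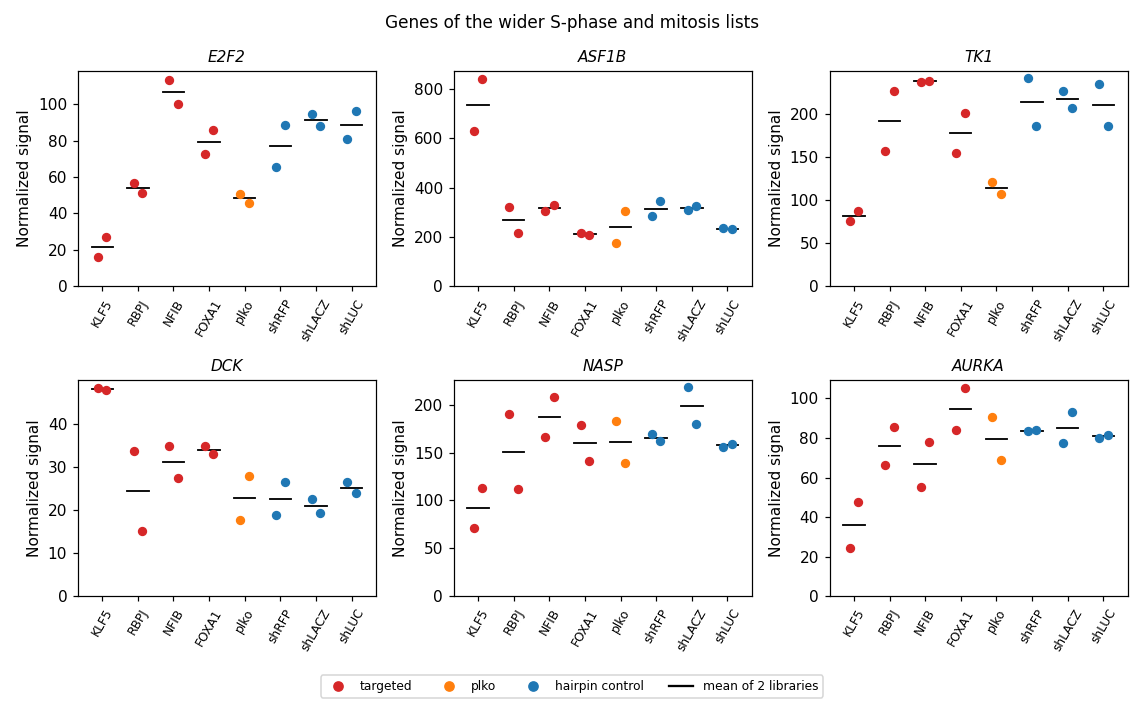
Each dot is the normalized signal of one library and each line the mean of 2 libraries, for genes of the wider S-phase list and the mitotic kinase gene AURKA. With KLF5 hairpins ASF1B reaches 631 and 841 and DCK 48.3 and 47.8, above all other libraries, while E2F2 and AURKA are below every control.

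The targets were then set against each other, since passing with one and not with another is no test of a difference. Of the 6 differences between targets, members passed in 3, all of them with KLF5. For KLF5 minus RBPJ, 1 member passed, against 1.79% of all genes: LIG1, at -2.18 (limma adjusted p = 0.0359). For KLF5 minus NFIB, 2 passed, against 2.79% of all genes: LIG1 at -2.24 (limma adjusted p = 0.0237) and E2F1 at 0.97 (limma adjusted p = 0.041). For KLF5 minus FOXA1, 1 passed, against 2.88% of all genes: E2F1, at 1.24 (limma adjusted p = 0.0112). E2F1 for KLF5 minus RBPJ was 0.58, with a 95% confidence interval of 0.06 to 1.10, and did not pass (limma adjusted p = 0.251). CDK4 was lower with KLF5 hairpins than with each other target by 0.53 to 0.71 on the log2 scale, but no such difference passed (limma adjusted p of 0.154 to 0.303). No member passed in the other 3 differences, where 0, 0.0647 and 0.0277% of genes did. The 4 calls became 0 without KLF5 1, 1 without KLF5 2 and 2 without NFIB 1.

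With RBPJ hairpins no member passed by limma, edgeR or DESeq2, against 0.0277% of all genes by limma, and 1 member had an unadjusted p under 0.05, against 5.48% of genes. DESeq2 gave an adjusted p to only 4529 genes here, so any member without one could not pass by it. The median member stood at 0.13, with 36 of 47 above 0, against 0.05 over all genes. MCM5, a helicase subunit, had 109 and 135 with RBPJ hairpins, against 48.5 to 98.6 in the controls. Both libraries lay above every control, with a difference of 0.59 that did not pass (limma adjusted p = 0.857). That held for 2 members, MCM5 and CHAF1A, a chromatin assembly subunit, against 2.43% of genes, and no member lay below every control in both, against 2.03%. LIG1 had 78.8 and 67.8 (0.70, limma adjusted p = 0.946), CDC6, the loader of the helicase, 38.3 and 49.3 (0.43, limma adjusted p = 0.946), ORC1, the largest subunit of the origin recognition complex, 10.7 and 11.4 (0.66, limma adjusted p = 0.946) and CDT1 54.7 and 46.9 (0.34, limma adjusted p = 0.946).

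The RBPJ hairpins differed from each other in depth of knockdown and in members. RBPJ 1, with RBPJ at 84.3% of the control mean, had E2F1 at 141.5, above every control, whereas RBPJ 2, with RBPJ at 16.6%, had it at 102, inside the range. CDC45, the helicase activator, had 19.2 in RBPJ 1 and 32.7 in RBPJ 2, against 11.03 to 25.1 in the controls. RBPJ 1 lay above every control for 9 members and below for 2, and RBPJ 2 for 11 and 3. Over all tested genes those shares were 8.87% above and 6.43% below for RBPJ 1, against 19.1% and 4.26% of members, and 16.8% and 14.1% for RBPJ 2, against 23.4% and 6.38% of members.

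With NFIB hairpins no member passed by limma, edgeR or DESeq2 either, against 0.00924% of all genes by limma, and 3 had an unadjusted p under 0.05, against 6.66% of genes. Here DESeq2 gave an adjusted p to only 5998 genes. The median member stood at 0.14, with 30 of 47 above 0, against 0.05 over all genes. CDT1, which loads the helicase in G1, had 72.4 and 62.9 with NFIB hairpins, against 32.2 to 49.0 in the controls. Both libraries were the highest of the series, and the difference of 0.75 had the smallest p of the members (limma adjusted p = 0.468). MCM7 had 537 and 455 against 282 to 446 in the controls (0.43, limma adjusted p = 0.734), and MCM5 had 114 and 131 against 48.5 to 98.6 (0.60, limma adjusted p = 0.734). Both helicase genes lay above every control in both NFIB libraries. With CDT1 they were the 3 members to do so, against 3.28% of genes, and none lay below in both, against 2.85%. LIG1 had 60.8 and 96.6 (0.76, limma adjusted p = 0.76) and RPA2 152 and 133 (0.33, limma adjusted p = 0.766), and both overlapped the controls.

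All 6 MCM2-7 genes and all 4 licensing genes had positive log2 differences with NFIB hairpins, as with RBPJ hairpins, but both comparisons share the same 8 controls. Those controls include plko, whose libraries were low in MCM5, LIG1 and POLD2. Against plko alone 3 of 47 members passed with RBPJ hairpins (MCM5, LIG1 and POLD2) and 4 with NFIB hairpins (the same and CDT1), all higher. In those comparisons 273 and 571 of all 10826 genes passed, 175 and 371 of them higher, so calls rose across the table. Against the 6 hairpin controls none passed with either. In NFIB 1, with NFIB at 61.9% of the control mean, E2F1 was at 71.8, below every control, and in NFIB 2, with NFIB at 10.97%, it was at 116, above every control. CCND1 was at 159 in NFIB 1 and 70.0 in NFIB 2, the second of which lay below every control. NFIB 1 lay above every control for 8 members and below for 2, against 16.7% and 12.9% of genes, and NFIB 2 for 6 and 6, against 11.7% and 9.56%. Those are 17% and 4.26% of members for NFIB 1, and 12.8% each way for NFIB 2.

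With FOXA1 hairpins no member passed by limma, edgeR or DESeq2, against 0.00924% of all genes by limma, and 1 had an unadjusted p under 0.05, against 5.1% of genes. The median member stood at -0.10, with 29 of 47 below 0, against 0.00 over all genes. RFC4, a clamp loader subunit, had 165 and 162 with FOXA1 hairpins, against 199 to 324 in the controls (-0.53, limma adjusted p = 0.86). E2F3 had 19.8 and 19.5 against 5.63 to 15.7 in the controls (0.68, limma adjusted p = 0.962). Both FOXA1 libraries lay outside the control range for these genes, below it for RFC4 and above it for E2F3. That held above for 2 members, against 2.31% of genes, and below for 4, against 2.76%.

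E2F1 was at 76.4 and 75.1 with FOXA1 hairpins, below every control (-0.34, limma adjusted p = 0.992). MCM4, a helicase subunit, had 103 and 101, above the controls at 41.9 to 98.5 (0.43, limma adjusted p = 0.992). FEN1, the flap nuclease of Okazaki fragments, had 135 and 99.1 against 132 to 188 in the controls (-0.34, limma adjusted p = 0.992). PRIM1 had 21.7 in FOXA1 1 and 4.51, or 3 reads, in FOXA1 2, against 10.8 to 44.1 in the controls (-0.86, limma adjusted p = 0.992). That difference rests on FOXA1 2 and became 0.16 without it. FOXA1 2, with FOXA1 at 54.8% of the control mean, lay below every control for 10 members, or 21.3%, against 11.7% of all genes, and FOXA1 1, with FOXA1 at 22.8%, for 4, or 8.51%, against 8.42%. Above every control lay 3 members in FOXA1 2, or 6.38%, against 10.6%, and 2 in FOXA1 1, or 4.26%, against 9.24%.

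Of the wider S-phase genes, the brakes and the mitosis genes, none passed with RBPJ, NFIB or FOXA1 hairpins by limma. Unadjusted p-values under 0.05 numbered 0, 7 and 3 of the 70 wider genes, 2, 2 and 1 of the 19 brakes and 6, 7 and 1 of the 34 mitosis genes for RBPJ, NFIB and FOXA1. The mitosis list had a median of -0.25 with RBPJ hairpins, -0.17 with NFIB hairpins and 0.01 with FOXA1 hairpins, while the members had 0.13, 0.14 and -0.10. By library the mitosis median was -0.21 in RBPJ 1 and -0.34 in RBPJ 2. The NFIB libraries disagreed, at -0.42 in NFIB 1 and 0.06 in NFIB 2. The median of the members was above that of all genes in both RBPJ and both NFIB libraries, and below it in both KLF5 libraries. With NFIB hairpins CDKN1A had 470 and 322 (0.80, limma adjusted p = 0.744), CDK6 34.2 and 40.1 (-0.86, limma adjusted p = 0.542) and CCNA2 75.2 and 107 (-0.67, limma adjusted p = 0.609), against 243 ± 91.6, 69.2 ± 12.6 and 146 ± 31.8 in the controls (SD, n = 8).

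**Figure D5:**
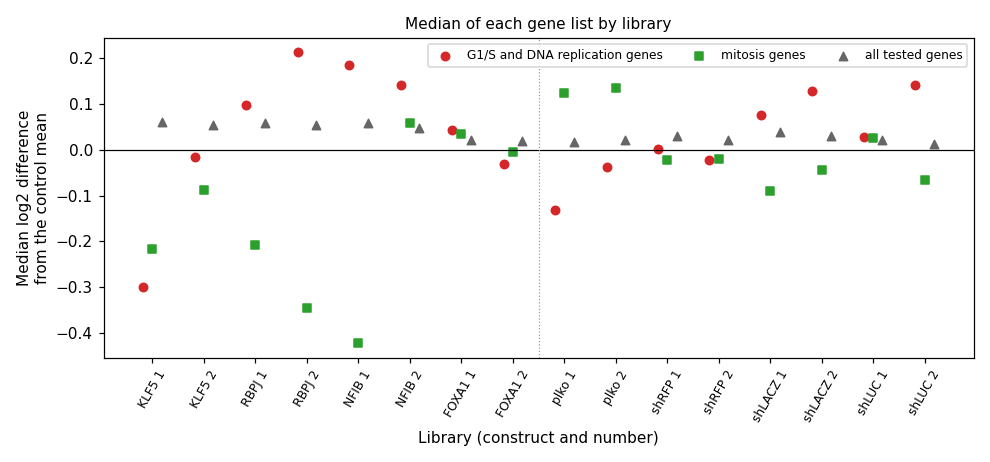
For each library the points give the median, over the 47 members, the 34 mitosis genes and all 10826 tested genes, of the log2 difference from the mean of the 8 controls, with targeted libraries left of the dotted line. Members are at -0.30 and -0.01 in KLF5 1 and KLF5 2, and at 0.10 to 0.21 in the RBPJ and NFIB libraries, where the mitosis genes run from -0.42 to 0.06.

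Because the plko libraries are named for the backbone and the other controls for a foreign gene, plko was also set against the 6 hairpin controls. The identifier of plko 1, unlike that of plko 2, is not made of zeros, so the labels do not settle whether plko 1 is an empty vector, and several calls below rest on plko 1. Here 4 of 47 members passed, or 8.51%, against 7.5% of all genes, and all 4 were lower: POLD2, LIG1, MCM5 and CCNE1. Of all genes 5.63% were called lower and 1.88% higher. An unadjusted p under 0.05 was found for 13 members, against 23% of all genes. Both plko libraries lay above every hairpin control for 3 members, against 9.94% of genes, and below for 7, against 12.3%. The median member stood at -0.09, against 0.01 over all genes.

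POLD2 had 17.6 and 11.2 with plko, against 37.8 to 77.3 in the hairpin controls with a median of 55.8. LIG1 had 17.6 and 20.4 with plko, against 39.6 to 74.6 with a median of 62.1. MCM5 had 48.5 and 50.8 with plko, against 82.7 to 98.6 with a median of 95.9. None of these groups overlapped, and the log2 fold changes were -1.93, -1.59 and -0.91 (SE 0.28, 0.25 and 0.18; limma adjusted p = 0.000268, 0.00054 and 0.00367). Reads were few in plko 1, at 8 for POLD2, 8 for LIG1 and 22 for MCM5. In plko 2 they were 18, 33 and 82. MCM5 did not pass without plko 1 (-0.88, limma adjusted p = 0.0755).

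CCNE1 had 4.41, which is 2 reads, in plko 1 and 13.0 in plko 2, against 13.2 to 24.5 in the hairpin controls. Its log2 fold change was -1.20 (SE 0.37, limma adjusted p = 0.0468), and it rests on that thin library, being -0.51 without plko 1 (limma adjusted p = 0.766). DESeq2 gave CCNE1 no adjusted p. The call was also lost by edgeR (adjusted p = 0.244), with a pseudocount of 5, with equal totals (limma adjusted p of 0.0576 and 0.057 for these 2), and without any one of shRFP 1, shLACZ 1, shLACZ 2, shLUC 1 and shLUC 2, with limma adjusted p of 0.0563 to 0.0833 for those 5 libraries. RFC3, a clamp loader subunit, had 223 and 212 with plko, above the hairpin controls at 75 to 157, and did not pass (0.72, limma adjusted p = 0.0576).

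Genes outside the set were called in both directions with plko. The share called was 10% of the wider S-phase list, 10.5% of the brakes and 14.7% of the mitosis genes, against 7.5% of all genes. Of all genes 1.88% were called higher and 5.63% lower. In the wider S-phase list 3 of 70 were higher and 4 lower, with CCND3, a D-type cyclin, at 8.82 and 22.3 against 48.5 ± 5.86 in the hairpin controls (SD, n = 6; log2 -1.70, limma adjusted p = 0.000681). TK1 (-0.89, limma adjusted p = 0.00546), E2F2 (-0.80, limma adjusted p = 0.0248) and E2F4, an E2F that works with pocket proteins (-0.81, limma adjusted p = 0.0248), were also lower. TOP1, which relaxes DNA ahead of the fork (0.90, limma adjusted p = 0.0296), and CCNA2, the cyclin of S phase and G2 (0.59, limma adjusted p = 0.0485), were higher. Of 19 brakes, CDKN1A was lower, at 86.0 and 146 against 286 ± 52.1 (SD, n = 6; log2 -1.32, limma adjusted p = 0.0035), and DYRK1A, a kinase of the DREAM repressor, was higher (0.84, limma adjusted p = 0.0168). Of 34 mitosis genes 4 were higher (CKAP2, TOP2A, CEP55 and BUB1B, by 0.62 to 0.92) and CDC25B was lower (-0.71, limma adjusted p = 0.0323). Without plko 1, CCND3, E2F2, E2F4, TOP1, CDKN1A, DYRK1A and all 5 mitosis genes no longer passed, with limma adjusted p of 0.0585 to 0.431. Without plko 2, E2F2, TOP1, TOP2A, CDC25B, CEP55 and BUB1B did not (0.085 to 0.333), and without single hairpin control libraries TOP1, CDC25B, CEP55 and BUB1B did not in some cases (0.05 to 0.0705). By edgeR, E2F4, TOP1 and CDC25B did not pass (adjusted p = 0.0762, 0.0502 and 0.0596), and by DESeq2 E2F4 did not (adjusted p = 0.0561). CCNA2 was not refitted under these alternatives.

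LIG1 among the members, and TK1, E2F2 and CDC25B outside the set, were called lower both in the KLF5 libraries and in the plko libraries. Since the plko libraries serve as controls in the first comparison and are the group of interest in the second, these are values side by side and not independent results. E2F1 was at 90.5 and 93.6 with plko, inside the range of the hairpin controls at 84.5 to 106, and AURKA was at 90.4 and 68.8, against 77.4 to 93.2. KRT8 and LIG1 were both low in the KLF5 and plko libraries, and against plko alone LIG1 and CDK4 did not pass with KLF5 hairpins while E2F1 did.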

How the data were processed

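RNA from 16 HCC70 libraries was measured as 3′ cDNA barcoded in batches of 12 samples and amplified by in vitro transcription, per the labels' protocols. These add that some samples were sequenced again. The labels do not say which, nor which libraries shared a batch. No batch term was fitted, and effects of batch and of construct cannot be told apart here. The authors deposited a table of normalized signal, whose name says DESeq2-normalized. Per the submitters' processing notes reads were placed on GRCh37; aligner, counter, annotation, strand setting and any use of molecular identifiers are not stated. The values are whole multiples of 1 read within 0.05 of a read for 100% of values, so whole reads were recovered. The table has 2 columns that match no sample here and were not used. Symbols were found for 11259 of 11282 identifiers.

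Depth differed 8.23-fold, and 1 read is worth 0.249 to 2.21 units of signal, which limits low genes in shallow libraries; intervals cover the spread between these libraries. Library pairs of a construct differed beyond sampling noise (chi-square per degree of freedom 1.99 to 19.1), so each counts once. The 2 libraries of a target carried different hairpins, and the 8 controls pool 4 constructs. The p-values and intervals therefore rest on spread that includes differences between hairpins and between constructs. The labels do not say that control libraries came from separate cultures, so p-values measure only the spread between these samples, part of which may be technical.

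Tests used limma 3.58.1 with a mean-variance trend in R 4.3.3 on log2(value + 1), which understates changes of low genes, for genes with at least 5 in at least 2 libraries. A factor of 5 levels pooled the 8 controls, and a factor of 6 levels set plko apart. Tests were 2-sided, with Benjamini-Hochberg adjustment over 10826 genes. The code was tested on simulated data. Alternatives were edgeR 4.0.16 and DESeq2 1.42.0 on recovered reads, other pseudocounts, filters, scalings and control sets, a replicate block, and leaving out each library. DESeq2 gave an adjusted p to 8307 genes for KLF5, 4529 for RBPJ, 5998 for NFIB, 10826 for FOXA1 and 6628 for plko. Its counts cover those genes only. Named members are those past the threshold, the 5 of smallest p in each comparison and a set of core genes; others are named for lying outside the control range, which was seen first. In other lists up to 5 passing genes of smallest p and 8 core genes are named. Members and lists were chosen with earlier results of these data known. Promoters came from RefSeq on GRCh38.p14, and overlapping genes from GENCODE annotation of that build by name only.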

Additional observations from a re-analysis of the deposited data

Results flagged for a closer look

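In the 8 control libraries each member was checked for a library far from the rest, and 5 of 47 members had one. Chance gives about 1 in 20 groups where all libraries are alike. These controls are 4 constructs of unequal depth, so that rate is only a guide. All of these were plko libraries, and all but the CCNE2 flag fell on plko 1, the shallowest library at 375713 reads. RFC5 had 17 reads there and PRIM1 had 20. RRM2 was lowest in plko 1, at 102, CCNE2 was highest in plko 2, at 183, and RFC1, RFC5 and PRIM1, the last the catalytic primase subunit and RFC5 a clamp loader subunit, were highest in plko 1, at 92.7, 37.5 and 44.1.

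The effect of the hairpins differed between targets for 2 members by limma's test of the difference. LIG1 was lower with KLF5 hairpins than with RBPJ hairpins by a log2 difference of -2.18 (limma adjusted p = 0.0359) and than with NFIB hairpins by -2.24 (limma adjusted p = 0.0237), in both libraries of each. E2F1 was higher with KLF5 hairpins than with NFIB hairpins by 0.97 (limma adjusted p = 0.041) and than with FOXA1 hairpins by 1.24 (limma adjusted p = 0.0112), again in both libraries of each.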

How the results depend on the processing

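The count of 3 members with KLF5 hairpins became 5 by DESeq2, 6 against the 6 hairpin controls and 0 to 4 when single libraries were left out. With RBPJ hairpins 0 became 3, and with NFIB hairpins 0 became 4, against plko alone. The count of 4 with plko became 2 to 9 when single libraries were left out, and the 4 calls between targets became 0 to 3. Signs turned for CCNE1 (0.63 against plko alone), CDK2 (0.20 without KLF5 2, with -0.97 to 0.20 over all single omissions) and RRM2 (-0.0205 against the 6 hairpin controls and -0.0258 without plko 1, with -0.0258 to 0.19 over omissions) with KLF5 hairpins, and for PRIM1 (0.16 without FOXA1 2, with -1.88 to 0.16 over omissions) with FOXA1 hairpins. The cause was not tested. Of 703 values for 33 member results, 661 kept their direction and side of the threshold, 13 newly passed, 24 no longer passed and 5 turned. For 22 results on genes of other lists, 377 of 436 values kept both and 59 no longer passed; these were added after seeing the data.

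Over all genes, the 581 calls with KLF5 hairpins became 1194 against the hairpin controls, 372 against plko alone, 78 and 99 without KLF5 1 and KLF5 2, and 883 without plko 1. The 3 with RBPJ hairpins became 0 by edgeR, 26 by DESeq2, 273 against plko alone, 142 without RBPJ 1, 6 without plko 1, and 0 without RBPJ 2, shRFP 1 or shRFP 2. The 1 with NFIB hairpins became 571 against plko alone, 10 by DESeq2, 2 without shLACZ 1, and 0 by edgeR, in a fit on its own libraries, and without NFIB 2, shRFP 1, shRFP 2 or shLUC 1. The 1 with FOXA1 hairpins became 70 against plko alone, 3 by DESeq2, 2 with a pseudocount of 5 and without plko 1 or shLUC 1, and 26 and 0 without FOXA1 1 and FOXA1 2. The 812 with plko became 382 by edgeR, 496 by DESeq2 and 131 without plko 1.

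Replicate numbers showed no pairing common to all groups: deviations correlated at -0.195 to 0.216 over 28 pairs of groups (median 0.026), with 3 over 0.1. These deviations also hold differences between hairpins, so they cannot exclude a batch shared by some libraries. With the replicate number as a block, 3 members passed with KLF5 hairpins and 4 with plko, and it changed no member call.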
